A study of Bos taurus with 5 samples.

Results

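The brain-labelled and the heart-labelled cattle (Bos taurus) libraries were compared gene by gene, and 513 of 27607 genes in the deposited table met the rule for a difference. The rule asked that the higher of both values be at least 50 FPKM (a fragment count scaled to transcript length and to the library's mapped fragments) and that the higher value plus 1 be at least 4 times the lower value plus 1. In 286 of the 513 genes the brain-labelled library was the higher one, and in 227 it was the heart-labelled library. These are 2 of the 5 RNA sequencing libraries of the study, which also holds libraries labelled skin, lung and limb. Each is labelled with a tissue alone. The sources used here give no breed, genotype, sex, age or treatment, nor the number of animals or cells behind a library. Per the labels' protocols, cells were lysed, and RNA amplification and library preparation were done on a Fluidigm C1-HT chip, a microfluidic device. With 1 library per label there is no replicate, so the values below describe these libraries, carry no error, and cannot tell a tissue from the animal, the cells taken or the handling of that library. If a library was made from a pool of cells, fewer cells of a type and less RNA per cell cannot be told apart.

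Several gene groups named below work as units. Interferons are secreted when cells sense viral nucleic acid, and they switch on genes such as MX1 and ISG15, whose products restrict virus growth, together with the immunoproteasome subunits that cut proteins for display to T cells. The extracellular matrix is the collagen- and glycoprotein-rich mesh that connective tissue cells lay down and crosslink, and smooth-muscle-type contractile proteins such as calponin mark cells that pull on it. Pre-mRNA splicing factors, ribosome assembly factors and the mitochondrial ribosome are used in nearly every cell. Heart muscle is known for sarcomere proteins such as troponin T, and brain for synaptic proteins such as SNAP25.

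The tissue labels were checked against marker genes before anything else. Of 29 entries for heart muscle cells, 3 were above 0 in the heart-labelled library and 4 in the brain-labelled one, with TNNT2, MYH7, ACTN2 and NPPA listed at 0 in both. ACTC1, the cardiac form of alpha-actin, was itself one of the differing genes and stood higher under the brain label, at 57.7 FPKM in the brain-labelled and 5.21 in the heart-labelled library. Of 23 neuronal entries, 1 was above 0 under the brain label and 2 under the heart label, with SNAP25, SYT1, STMN2 and RBFOX3 listed at 0 in both. UCHL1, a ubiquitin hydrolase of neurons that other cells can also make, was at 918 FPKM in the brain-labelled and 1572 in the heart-labelled library. Markers of macrophages, lymphocytes and red cells were all at 0 in both libraries. Fibroblast and matrix markers were above 0 for 13 of 24 entries under the brain label, with a summed level of 7318 FPKM, and for 14 of 24 under the heart label, with 10583 FPKM. Smooth muscle markers were above 0 for 6 of 13 entries with a sum of 8187 FPKM under the brain label, and for 7 of 13 with 12331 FPKM under the heart label. The markers thus do not bear out heart muscle or brain as the source of these libraries, and both are named by their labels throughout.

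The pair was alike in breadth. Genes above 0 numbered 6599 in the brain-labelled and 6634 in the heart-labelled library, against 5109 to 5991 in the other 3. Of the 2623 genes at 50 FPKM or more in at least 1 library of the pair, 1590 reached it in both and 1491 (56.8%) lay within 2-fold of each other after adding 1. The median difference over the 2623 genes was 0.17 on the log2 scale, brain-labelled minus heart-labelled, and the brain-labelled value was the higher one in 1473 of them (56.2%). The 286 genes higher under the brain label are 10.9% of the 2623, and the 227 genes higher under the heart label are 8.65%. Both percentages are the background against which each gene list is read below. The background is higher at low levels: among genes at 50 to 100 FPKM, 17.6% were higher under the brain label and 13.8% under the heart label.

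**Figure D1:**
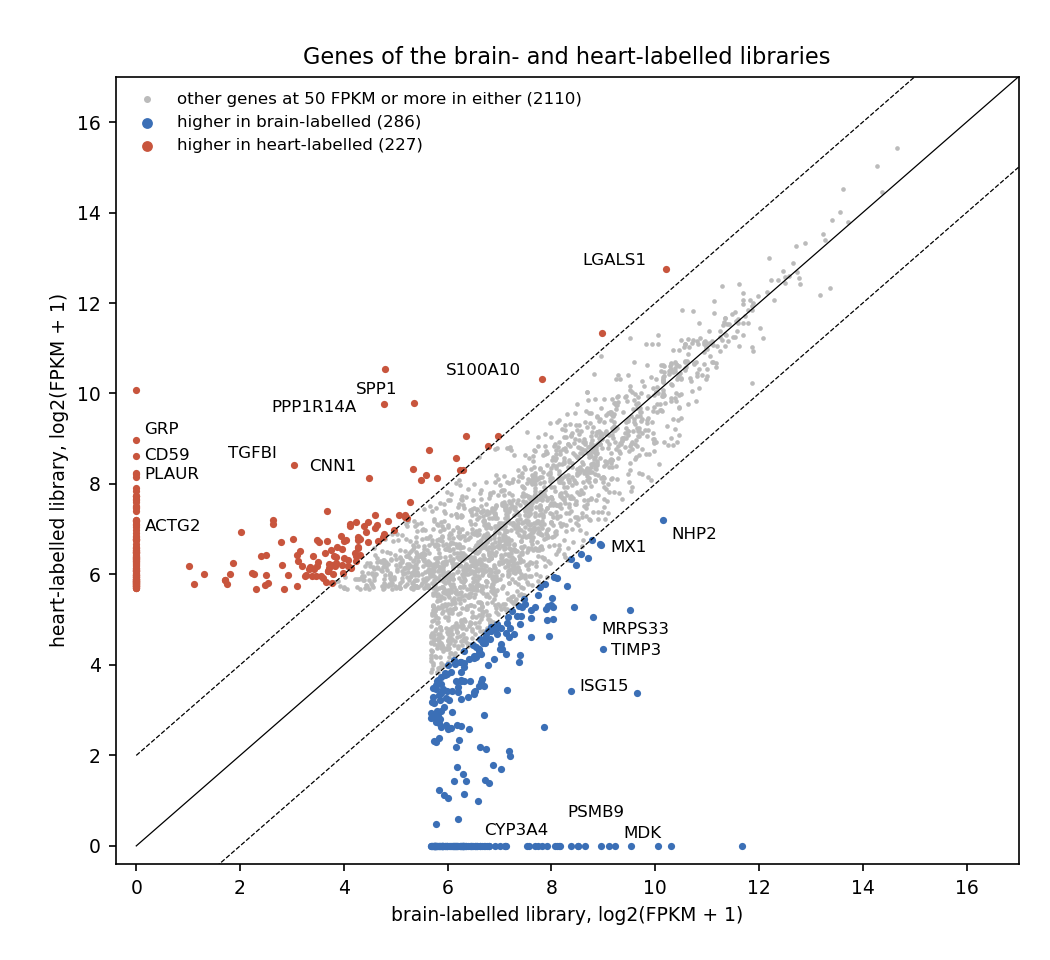
Each point is 1 gene at 50 FPKM or more in at least 1 of the brain-labelled (horizontal axis) and heart-labelled (vertical axis) libraries, both as log2(FPKM + 1). The solid line marks equal values and the dashed lines a 4-fold difference. Blue points are the 286 genes higher under the brain label, red points the 227 higher under the heart label, and grey points the other 2110; most coloured points lie at low levels or at 0 in 1 library.

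Most of the differing genes were modest in level. Among genes whose higher value lay between 50 and 100 FPKM, 31.4% of 997 met the rule, and the share fell step by step to 3.69% of the 244 genes at 1000 FPKM or more. Of the 286 genes higher under the brain label, 175 were below 100 FPKM and 113 (39.5%) were listed at 0 under the heart label. Of the 227 in the other direction, 138 were below 100 FPKM and 108 (47.6%) were listed at 0 under the brain label. A 0 in this table can be a missed transcript: by a rough reading of the spacing of low values, 50 FPKM corresponded to a median of 6.68 reads in the brain-labelled library, with quartiles of 3.08 and 12.9 reads. How much of the rise in differing genes at low levels comes from so few reads was not tested. Both sides were at 10 FPKM or more for 109 of the 286 genes and for 81 of the 227. No ratio is given for a gene listed at 0 in 1 library, and adding 1 understates the ratio of low genes.

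**Figure D2:**
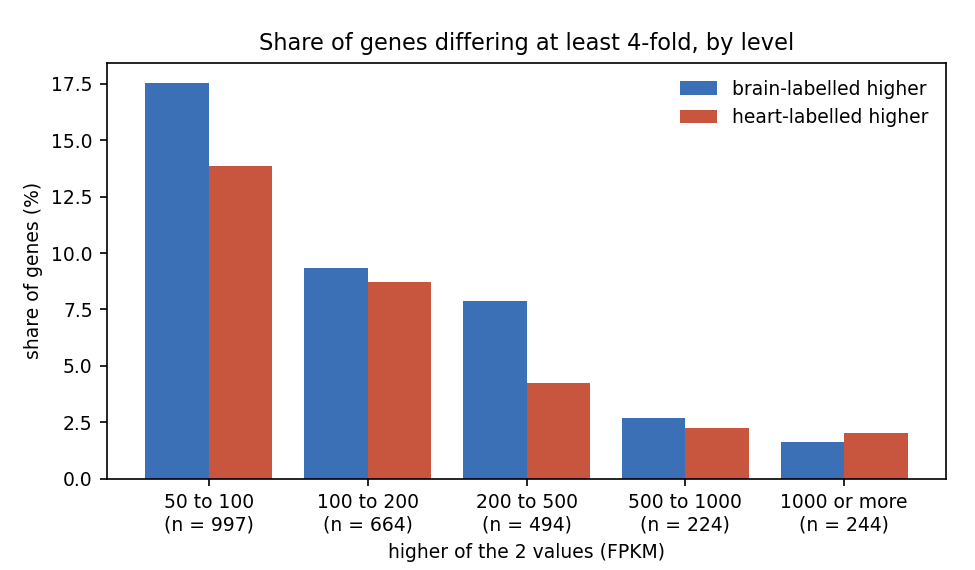
Bars give the share of genes (%) that differed at least 4-fold, by the higher of the brain- and heart-labelled values in FPKM, with the number of genes in each range below it. Blue bars are brain-labelled higher and red bars heart-labelled higher; both shrink from 17.6% and 13.8% at 50 to 100 FPKM to 1.64% and 2.05% at 1000 FPKM or more.

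The edges of the rule were not sharp. EMD (emerin, of the nuclear envelope) at 50.1 FPKM and UBE2H (a ubiquitin-conjugating enzyme) at 50.1 FPKM, both at 0 under the heart label, were just inside the minimum. WDR77, at 49.9 FPKM with 0 under the heart label, and MCL1, at 49.6 against 9.41 FPKM, were just outside it. Under the heart label FGFR1 (50.5 FPKM) and KLC1 (50.5 FPKM) were just inside, and ERP29 (49.5 FPKM) and UQCC1 (49.4 FPKM) just outside. By the ratio after adding 1, TAF12 and U2SURP were just inside on the brain-labelled side at 4.01 and 4.02, and EIF2S1 and POGLUT2 just outside at 3.98 and 3.95. On the other side TIMP2 and THUMPD1, both at 4.01, were just inside and ID2 (3.99) and CCND2 (3.98) just outside.

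Some antiviral genes stood higher under the brain label. Of the 19 genes of the interferon list that reached 50 FPKM in either library, 4 (21.1%) were at least 4-fold higher under the brain label. They were MX1, ISG15, IFI44L and IRF3, the last of which acts upstream of interferon. Under the heart label 1 gene (5.26%) was higher, and the list's median difference was 0.43. MX1, a GTPase that blocks virus replication, was at 487 FPKM in the brain-labelled and 101 in the heart-labelled library, and at 29.1, 175 and 74.7 FPKM in the skin-, lung- and limb-labelled ones. ISG15, a ubiquitin-like protein attached to other proteins during the response, was at 333 FPKM in the brain-labelled and 9.77 in the heart-labelled library, and at 0, 47.3 and 0 FPKM in the same other libraries. IFI44L, another interferon-induced gene, was at 128 FPKM under the brain label, 43.8 FPKM under the limb label and 0 elsewhere. The brain-labelled value was thus the highest of the 5 for MX1, ISG15 and IFI44L. IRF3, the factor that turns on interferon genes, was at 53.3 FPKM under the brain label and 0 under the heart label. Other genes of the list, named after their values were seen, differed less: OAS1Y, of the 2-5A synthetase family, was at 742 FPKM in the brain-labelled and 229 in the heart-labelled library, and USP18, which removes ISG15, at 365 FPKM in the brain-labelled and 149 in the heart-labelled library. IFIT1 was nearly even at 194 FPKM in the brain-labelled and 173 in the heart-labelled library. The list did not move as 1 block. IFITM1, a membrane protein that hinders virus entry, was at 3682 FPKM in the heart-labelled and 1473 in the brain-labelled library. LGALS3BP, a secreted glycoprotein induced by interferon, was at 52.2 FPKM under the heart label and at 0 under the brain label. ISG12(B), an interferon-induced gene outside the list, was at 535 FPKM in the heart-labelled and 81.0 in the brain-labelled library, so that its ratio of 6.60 was turned the other way. The list's counts thus depend on IRF3 being in it and ISG12(B) being left out.

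The immunoproteasome followed the same side. PSMB9, its inducible catalytic subunit, stood at 494 FPKM under the brain label and was listed at 0 under the heart label. With 123, 341 and 208 FPKM under the skin, lung and limb labels, the heart-labelled library was the only one of the 5 without it. The other catalytic subunits of that form, PSMB8 at 403 FPKM in the brain-labelled and 120.4 in the heart-labelled library and PSMB10 at 229 FPKM in the brain-labelled and 80.5 in the heart-labelled library, were higher under the brain label by less than the rule asks. BOLA, a class I histocompatibility gene, was at 251 against 75.3 FPKM (brain-labelled first) and B2M, its light chain, at 3299 against 2502 FPKM. Of the 9 genes of antigen presentation at the minimum, 7 were higher under the brain label, 1 of them (11.1% of the 9, near the background) past the rule. Values of genes with near-identical copies, such as BOLA and the IFITM family, are uncertain because reads can be shared between copies.

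Single genes for secreted proteins stood higher under the brain label, although the shares of their lists were near the background or below it. The lists gave 2 of 29 matrix genes (6.90%) and 1 of 15 metalloproteinases, inhibitors and serpins (6.67%). Of 18 growth factors, receptors and inhibitors, 2 (11.1%) were higher, MDK and the adaptor GRB2, which is not secreted. MDK (midkine), a heparin-binding growth factor of developing tissue, was at 599 FPKM under the brain label and 0 under the heart label, with 194, 260.0 and 492 FPKM under the skin, lung and limb labels. TIMP3, a matrix-bound inhibitor of metalloproteinases, was at 508 FPKM in the brain-labelled and 19.5 in the heart-labelled library, a ratio of 26.00. Its other values were 48.3, 50.2 and 514 FPKM, so the limb-labelled value was close to the brain-labelled one. CCN3, a matricellular protein, was at 206 FPKM under the brain label, 0 under the heart and skin labels, 25.6 FPKM under the lung label and 475 FPKM under the limb label. EFEMP1, a fibulin, was at 76.0 FPKM in the brain-labelled and 5.25 in the heart-labelled library and above 100 FPKM in the remaining libraries, at 317, 194 and 136 FPKM. For MDK and EFEMP1 it was therefore the heart-labelled value that stood apart from the other 4.

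Enzymes of retinoid and drug metabolism divided between the libraries. ALDH1A1, which makes retinoic acid from retinaldehyde, was at 268 FPKM under the brain label and 0 under the heart label. It ranged over the other libraries from 2.34 FPKM (lung label) through 317 FPKM (skin label) to 3075 FPKM (limb label). CYP3A4, a cytochrome P450 best known from liver, was at 281 FPKM under the brain label and at 0 in the other 4. NQO1, a quinone reductase, was at 59.1 FPKM against 0. On the heart-labelled side stood MGST1, a membrane glutathione transferase (66.9 FPKM against 0), AKR7A2, an aldehyde reductase (108 FPKM against 0), and the mitochondrial aldehyde dehydrogenases ALDH4A1 (109.7 against 7.13 FPKM) and ALDH7A1 (74.7 against 12.2 FPKM), heart-labelled values first. Of the list's 24 genes, 3 (12.5%) were higher under the brain label and 4 (16.7%) under the heart label, with a median difference of -0.15.

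The mitochondrial ribosome leaned to the brain-labelled side. Of 66 of its proteins at the minimum, 10 (15.2%) were higher under the brain label and 1 (1.52%) under the heart label, with a median difference of 0.38. MRPS33, of the small subunit, was at 447 FPKM in the brain-labelled and 32.2 in the heart-labelled library, with 269.9, 234 and 205 FPKM under the skin, lung and limb labels. MRPL30, of the large subunit, was at 379.7 FPKM in the brain-labelled and 86.7 in the heart-labelled library. MRPS27 was at 72.7 FPKM in the brain-labelled and 9.56 in the heart-labelled library, and MRPL49 (74.5 FPKM) and MRPS22 (53.2 FPKM) were at 0 under the heart label. The other 5, named after their values were seen, were MRPL58, MRPL12, MRPL18, MRPL48 and MRPL45, at 56.5 to 245 FPKM under the brain label and 8.30 to 45.4 FPKM under the heart label. MRPS30 alone was turned the other way, at 73.1 FPKM under the heart label and 0 under the brain label. RNA levels of the mitochondrially encoded genes did not differ at this size: 0 of 13 met the rule and their median difference was -0.12. The nuclear subunits of the respiratory chain were nearly as even, with 1 of 46 complex I genes and 2 of 54 genes of complexes II to V higher under the brain label and 0 under the heart label. Cytosolic ribosomal proteins differed in 1 of 86 genes, RPL26L1 (a copy of RPL26), at 245 FPKM in the brain-labelled and 23.9 in the heart-labelled library. These even lists also sit at higher levels, with a median higher value of 1507 FPKM for cytosolic ribosomal proteins, 425 FPKM for complex I and 3100 FPKM for the mitochondrially encoded genes, against 124 FPKM for the mitochondrial ribosomal proteins and 136 FPKM for all 2623 genes.

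RNA processing and ribosome assembly leaned the same way. In the splicing list of 88 genes, 10 (11.4%) were higher under the brain label, close to the background, while 1 (1.14%) was higher under the heart label, below it. The list's median difference was 0.51, and 67 of the 88 genes had the higher value under the brain label. SRSF10, a splicing regulator of the serine- and arginine-rich family, was at 345 FPKM in the brain-labelled and 37.7 in the heart-labelled library, with 329, 501 and 126 FPKM under the skin, lung and limb labels. SRSF2, of the same family, was at 72.2 FPKM in the brain-labelled and 10.4 in the heart-labelled library, the prolyl isomerase PPIL1 at 98.8 FPKM in the brain-labelled and 18.1 in the heart-labelled library, and the helicase DHX15 at 51.4 FPKM in the brain-labelled and 8.84 in the heart-labelled library. DHX15 was also low elsewhere, at 5.61, 1.54 and 7.69 FPKM, so that the brain-labelled value stood apart. The other members, named after their values were seen, were RBM4, SF3B4, DDX47, U2SURP, SRSF11 and HNRNPD, at 69.3 to 219 FPKM under the brain label and 15.2 to 52.2 FPKM under the heart label. PTBP1, a repressor of exon inclusion, was the exception, at 82.5 FPKM in the heart-labelled and 13.5 in the brain-labelled library. The lead of 9 genes on the brain-labelled side shrank to 4 after rescaling by a trimmed mean, to 2 with 10 added in place of 1, and to 1 at a ratio of 8.

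In the list of RNA decay, RNA modification and ribosome assembly, 8 of 41 genes (19.5%) were higher under the brain label and 3 (7.32%) under the heart label, with a median difference of 0.74. The list's median higher value was 98.1 FPKM, and 17.6% of all genes at 50 to 100 FPKM were higher under the brain label. NHP2, a core protein of the small nucleolar particles that guide pseudouridine formation, had the highest level of any named gene on that side, at 1138 FPKM in the brain-labelled and 147 in the heart-labelled library, a ratio of 7.75. Its levels of 340.1, 1029 and 524 FPKM under the skin, lung and limb labels ran between these. RPP21, a subunit of RNase P, which trims transfer RNA, was at 232 FPKM in the brain-labelled and 5.20 in the heart-labelled library, and POP5, of the same enzyme, at 90.4 FPKM in the brain-labelled and 16.9 in the heart-labelled library. TRMT5 and TRMT2A, which methylate transfer RNA, were at 95.1 against 0.98 FPKM and at 77.1 FPKM against 0, brain-labelled first. TSEN34, which cuts introns from transfer RNA, was at 56.7 FPKM under the brain label and 0 in the other 4 libraries. The nucleolar proteins NOL11 (128 against 19.3 FPKM) and RRP15 (50.3 against 6.08 FPKM) complete the 8. On the heart-labelled side stood UTP11 of early ribosome assembly (107 against 15.5 FPKM), RRP1 (63.2 against 2.50 FPKM) and the mitochondrial methyltransferase NSUN3 (63.7 against 1.46 FPKM), heart-labelled first.

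Transcription machinery was less one-sided. Of 46 genes for RNA polymerase subunits, general factors and Mediator, 5 (10.9%) were higher under the brain label, at the background share. Under the heart label 2 (4.35%) were higher, below the background, and the median difference was 0.44. POLR1D, shared by polymerases I and III, was at 169.6 FPKM in the brain-labelled and 32.7 in the heart-labelled library. GTF3A, which binds the 5S RNA gene, was at 116 FPKM in the brain-labelled and 2.44 in the heart-labelled library, and NELFE, which pauses polymerase II, at 165 FPKM in the brain-labelled and 38.5 in the heart-labelled library. The polymerase II subunit POLR2J was at 88.2 FPKM in the brain-labelled and 20.7 in the heart-labelled library and the TFIID subunit TAF12 at 63.1 FPKM in the brain-labelled and 14.99 in the heart-labelled library. MED28, of Mediator, was at 146 FPKM under the heart label and 0 in the other 4 libraries, and CCNH, of TFIIH, at 72.4 FPKM in the heart-labelled and 12.7 in the brain-labelled library. This 5 to 2 split depended on the scaling, and rescaling the heart-labelled library by the median ratio or a trimmed mean gave 1 gene more on the heart-labelled side than on the other.

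For protein breakdown, 4 of 44 proteasome genes (9.09%) were higher under the brain label and 1 (2.27%) under the heart label, both below the background shares. The list's median difference was 0.55. Besides PSMB9 these were the regulatory-particle subunits PSMD11 (204 FPKM in the brain-labelled and 37.8 in the heart-labelled library), PSMC4 (122 FPKM in the brain-labelled and 28.9 in the heart-labelled library) and PSMD2 (79.0 FPKM in the brain-labelled and 11.4 in the heart-labelled library). PSMD13, of the same particle, was at 82.2 FPKM under the heart label and 0 under the brain label. Of 69 ubiquitin and SUMO enzymes, 8 (11.6%) were higher under the brain label and 6 (8.70%) under the heart label, close to the background shares. RNF4, a ligase for SUMO-tagged proteins, was at 97.5 FPKM under the brain label and 0 in the other 4 libraries. ATXN3, a deubiquitinase, was at 94.7 FPKM under the heart label and 0 under the brain label.

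Several short lists had 3 to 5 genes on the brain-labelled side. Of 28 genes of mitosis and the cell cycle, 5 (17.9%) were higher under the brain label, although the list's median difference was -0.12. Its median higher value was 93.45 FPKM, and 17.6% of all genes at 50 to 100 FPKM were higher under the brain label. The share of this list was thus near that of genes at its level. MAD2L2, of spindle checkpoint and DNA damage tolerance, was at 77.2 FPKM, ANAPC10, of the anaphase-promoting complex, at 75.2 FPKM and HAUS1, of the augmin complex, at 69.0 FPKM, each against 0. The factors E2F4 and TFDP2, which pair to control cell cycle genes, were at 53.1 against 0 FPKM and 53.5 against 10.1 FPKM. CKS2, a small subunit of cyclin-dependent kinases, was the 1 gene on the other side, at 321 FPKM in the heart-labelled and 39.2 in the brain-labelled library, and it was higher still under the lung label at 1318 FPKM. Of 15 apoptosis genes, 3 were higher under the brain label and 0 under the heart label, among them BID (57.0 against 6.03 FPKM) and PHLDA3, a p53 target (101 FPKM against 0). Of 10 peroxisome genes, 3 were higher under the brain label: CAT (catalase, 57.5 against 10.98 FPKM), SCP2 (a sterol carrier, 78.7 against 15.5 FPKM) and PEX11A (77.3 FPKM against 0). PEX3, needed to build the peroxisome membrane, was at 95.3 FPKM against 0 on the heart-labelled side. Of 24 chromatin regulators, 3 (12.5%) were higher under the brain label, near the background. They were YEATS4, a reader of acetylated histones (144 against 3.30 FPKM), EED of Polycomb complex 2 (67.8 FPKM against 0) and PHF10 (58.2 FPKM against 0 in the other 4 libraries).

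Some of the largest brain-labelled differences fell outside the lists or in lists with few genes. FUNDC1, a receptor for the removal of mitochondria, was at 285 FPKM under the brain label and 0 under the heart label, with 316, 99.6 and 41.1 FPKM under the skin, lung and limb labels. MYL12B, a regulatory light chain of nonmuscle myosin, was at 103 FPKM against 0, and its near-identical neighbour MYL12A was even at 2419.7 FPKM in the brain-labelled and 2448 in the heart-labelled library. Reads of such copies can be assigned to either, so the difference in MYL12B is uncertain. DNAJB11, a co-chaperone of the endoplasmic reticulum, was at 137 FPKM against 0, and TUSC3, of the oligosaccharyltransferase, at 98.1 FPKM against 0. MCEE, an enzyme of propionate breakdown, was at 119 FPKM, EIF1AD, a nuclear relative of an initiation factor, at 104 FPKM and IFT46, of ciliary transport, at 93.2 FPKM, each against 0. Other abundant genes were measured in both libraries. CYSTM1, a small membrane protein, was at 495 FPKM in the brain-labelled and 100.1 in the heart-labelled library, ORMDL2, a brake on sphingolipid synthesis, at 436 FPKM in the brain-labelled and 107 in the heart-labelled library, and PA2G4, a growth regulator, at 354 FPKM in the brain-labelled and 73.0 in the heart-labelled library. CNIH1, a cargo receptor, was at 333 FPKM in the brain-labelled and 80.5 in the heart-labelled library, GOLGA7, which assists protein palmitoylation, at 235 FPKM in the brain-labelled and 54.5 in the heart-labelled library, and TTC1 at 274 FPKM in the brain-labelled and 59.5 in the heart-labelled library. OARD1, an ADP-ribose hydrolase, GLRX2, a mitochondrial glutaredoxin, and ARL1, a Golgi GTPase, were at 314 against 52.6 FPKM, 262 against 60.9 FPKM and 261 against 31.5 FPKM, brain-labelled first.

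On the heart-labelled side the most abundant differing genes with a name were LGALS1 and S100A10. LGALS1 (galectin-1), a secreted lectin of connective tissue, was at 6892 FPKM in the heart-labelled and 1184 in the brain-labelled library, a ratio of 5.82. Under the skin, lung and limb labels it was at 3512, 4235 and 3409 FPKM, so the heart-labelled value was the highest and the brain-labelled value the lowest of the 5. S100A10, the partner of annexin A2 at the cell membrane, was at 1271 FPKM in the heart-labelled and 224 in the brain-labelled library, with 1575, 513 and 448 FPKM elsewhere. S100B, a calcium sensor known from glia and cartilage, was at 201 FPKM under the heart label, 30.8 FPKM under the skin label and 0 in the other 3. Of the 17 genes of the S100, annexin and galectin list, 4 (23.5%) were higher under the heart label and 2 (11.8%) under the brain label, with a median difference of -0.91. The heart-labelled value was the higher one in 14 of the 17. Among these, named after their values were seen, LGALS3 was at 271 FPKM in the heart-labelled and 73.3 in the brain-labelled library, ANXA1 at 2498 FPKM in the heart-labelled and 1068 in the brain-labelled library, S100A16 at 2186 FPKM in the heart-labelled and 1066 in the brain-labelled library and S100A2 at 23575 FPKM in the heart-labelled and 12505 in the brain-labelled library. The 2 on the brain-labelled side were ANXA7 (52.1 FPKM against 0) and LGALS8 (54.5 against 11.4 FPKM), both near the minimum.

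After the S100, annexin and galectin list of 17 genes (-0.91), the extracellular matrix list had the lowest median difference among lists of 10 or more genes. Of its 29 genes, 7 (24.1%) were higher under the heart label and 2 (6.90%) under the brain label, the CCN3 and EFEMP1 given above. This median was -0.81, and the heart-labelled value was the higher one in 22 of 29. SPP1 (osteopontin), a secreted phosphoprotein of bone and inflamed tissue, was at 886 FPKM in the heart-labelled and 39.7 in the brain-labelled library, with 0, 93.1 and 1753 FPKM under the skin, lung and limb labels. TGFBI, a matrix protein induced by transforming growth factor beta, was at 343 FPKM in the heart-labelled and 7.25 in the brain-labelled library, a ratio of 47.3, and at 82.8, 0 and 19.8 FPKM in the others. LOX, which crosslinks collagen, was at 85.7 FPKM in the heart-labelled and 7.53 in the brain-labelled library, and here the brain-labelled value stood apart, since the others were at 276, 67.7 and 119.7 FPKM. NID2, of the basement membrane, was at 69.2 FPKM under the heart label and 0 under the brain label. The remaining 3, named after their values were seen, were the collagens COL5A1 (115 against 14.5 FPKM) and COL6A2 (68.5 against 9.79 FPKM) and tenascin TNC (88.0 against 17.6 FPKM), heart-labelled first. Genes of the list below a 4-fold difference included SPARC, a collagen-binding protein, at 5472 FPKM in the heart-labelled and 3128 in the brain-labelled library, CTHRC1 at 747 FPKM in the heart-labelled and 313 in the brain-labelled library, fibronectin FN1 at 262 FPKM in the heart-labelled and 106 in the brain-labelled library and COL1A2 at 523 FPKM in the heart-labelled and 311 in the brain-labelled library. COL3A1 was even, at 72.1 FPKM in the heart-labelled and 67.6 in the brain-labelled library. TIMP2, an inhibitor of metalloproteinases, was at 315 FPKM in the heart-labelled and 77.7 in the brain-labelled library, opposite in direction to TIMP3.

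Contractile genes of the smooth muscle type gave 3 members on the heart-labelled side. PPP1R14A, an inhibitor of myosin phosphatase, was at 873 FPKM in the heart-labelled and 26.2 in the brain-labelled library, a ratio of 33.3, with 1812, 209 and 123 FPKM under the skin, lung and limb labels. CNN1 (calponin), which binds actin in smooth muscle, was at 282 FPKM in the heart-labelled and 21.4 in the brain-labelled library, with 92.7, 22.8 and 601 FPKM elsewhere. ACTG2, the actin of visceral smooth muscle, was at 136 FPKM under the heart label and 0 in the other 4. ACTG2 and ACTC1 are closely similar in sequence to other actins, so both values are uncertain. The more abundant genes of this kind did not reach the rule: ACTA2, the main smooth muscle actin, was at 8209 FPKM in the heart-labelled and 4649.7 in the brain-labelled library, and TAGLN was slightly lower under the heart label at 2131 FPKM in the heart-labelled and 2350.1 in the brain-labelled library. Of the 21 genes of the contractile list, 3 (14.3%) were higher under the heart label and 2 (9.52%), ACTC1 and MYL12B, under the brain label, with a median difference of -0.35. The smooth muscle and fibroblast marker sums were 12331 against 8187 FPKM and 10583 against 7318 FPKM, heart-labelled first. They share genes with the contractile and matrix lists, among them ACTA2, CNN1, SPARC and COL5A1. Their common direction is therefore not a separate observation, and the part of cell types in these differences was not tested.

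Several cell surface proteins were higher under the heart label. Of 27 genes for tetraspanins, integrins and adhesion, 5 (18.5%) were higher under the heart label and 0 under the brain label, with a median difference of -0.45. CD59, which shields cells from complement, was at 394 FPKM under the heart label and 0 under the brain label, with 137, 60.3 and 30.9 FPKM in the skin-, lung- and limb-labelled libraries. PLAUR, the urokinase receptor, was at 301 FPKM under the heart label and 68.8 FPKM under the limb label, and at 0 in the other 3. PERP, a desmosome-associated membrane protein, was at 193 FPKM under the heart label and 0 under the brain label, and the brain-labelled library was the only one of the 5 without it. DSC3, a desmosomal cadherin, was at 69.7 FPKM in the heart-labelled and 12.2 in the brain-labelled library, and TSPAN5, a tetraspanin, at 61.3 FPKM against 0. Members of this list that were higher under the brain label by less than the rule asks, named after their values were seen, included TSPAN3 at 539 FPKM in the brain-labelled and 197 in the heart-labelled library and CD81 at 373 FPKM in the brain-labelled and 125 in the heart-labelled library. The lead of 5 genes shrank to 1 among genes above 0 in both libraries and to 2 at a minimum of 20 FPKM.

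Growth factor genes were found on both sides. GRP, the gastrin-releasing peptide, a neuropeptide outside the lists, was at 501 FPKM under the heart label, 26.5 FPKM under the lung label and 0 elsewhere. PTN (pleiotrophin), the closest relative of MDK, was at 79.5 FPKM under the heart label and 0 under the brain label, the reverse of MDK. NTRK2, the receptor for brain-derived neurotrophic factor, was at 55.4 FPKM under the heart label and 0 under the brain label. FGFR1, a fibroblast growth factor receptor, was at 50.5 FPKM in the heart-labelled and 3.93 in the brain-labelled library, and SPRY2, an inhibitor of such receptors, was at 58.7 FPKM under the heart label and 0 in the other 4. GRB2, the adaptor that links receptors to RAS, was at 80.9 FPKM in the brain-labelled and 1.69 in the heart-labelled library. In the list of 18 growth factors, receptors and inhibitors, 4 (22.2%), PTN, NTRK2, FGFR1 and SPRY2, were higher under the heart label and 2 (11.1%), MDK and GRB2, under the brain label, with a median difference of -0.74.

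Cytokines differed in few genes. IL6, an inflammatory cytokine, was at 147 FPKM under the heart label, 165 FPKM under the limb label and 0 in the other 3. CXCL5, a neutrophil attractant, was at 167 FPKM in the heart-labelled and 11.7 in the brain-labelled library, with 763, 3.36 and 449 FPKM under the skin, lung and limb labels, so the heart-labelled value was not the highest. IRAK4, a kinase of Toll-like receptor signalling, was at 89.9 FPKM in the brain-labelled and 17.3 in the heart-labelled library. Macrophage and lymphocyte markers, as given above, were at 0 in both libraries. Of the 12 genes of the cytokine list, 2 (16.7%) were higher under the heart label and 1 (8.33%) under the brain label.

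Transcription factors were found on both sides. Of 14 zinc finger factors, 4 were higher under each label, with a median difference of 0.87, and of 8 developmental factors 1 was higher under the brain label and 2 under the heart label. ID3, an inhibitor of helix-loop-helix factors, was at 228 FPKM under the heart label and 0 under the brain label, with 346, 431 and 25.5 FPKM in the skin-, lung- and limb-labelled libraries. ID2, of the same family, was just short of the rule at 387 FPKM in the heart-labelled and 96.2 in the brain-labelled library. PRRX1, a homeobox factor of limb and connective tissue mesenchyme, was at 199 FPKM against 0, and the brain-labelled library was again the only one of the 5 without it. SNAI2, a repressor of epithelial genes, was at 78.8 FPKM in the heart-labelled and 15.98 in the brain-labelled library. HEY1, a target of Notch signalling, was at 54.0 FPKM against 0, with 0, 0 and 1.14 FPKM under the skin, lung and limb labels. All 10 immediate early and related genes of the list at the minimum had the higher value under the heart label, but 2 of them, ID3 and BTG1 (59.7 against 11.1 FPKM), reached the rule. FOS was even at 54.9 FPKM in the heart-labelled and 53.2 in the brain-labelled library, as was DUSP1 at 127 FPKM in the heart-labelled and 124 in the brain-labelled library, and the median difference of the 10 was -0.70. SGK1, a kinase induced by serum and glucocorticoid, was at 380.5 FPKM in the heart-labelled and 70.5 in the brain-labelled library, with 174 FPKM under the skin label and 0 under the lung and limb labels.

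Other abundant genes on the heart-labelled side were spread over housekeeping roles. SELENOM, a selenoprotein of the endoplasmic reticulum, was at 531 FPKM in the heart-labelled and 124 in the brain-labelled library, and RNF181, a ubiquitin ligase, at 457 FPKM in the heart-labelled and 108 in the brain-labelled library. TMEM40, a membrane protein, was at 427 FPKM in the heart-labelled and 49.1 in the brain-labelled library, TRAPPC5, of vesicle tethering, at 291 FPKM in the heart-labelled and 47.2 in the brain-labelled library, and ABRACL, a regulator of actin dynamics, at 272 FPKM in the heart-labelled and 43.5 in the brain-labelled library. Redox enzymes there included PRDX3, the mitochondrial peroxiredoxin (104 against 10.4 FPKM), and TXNRD1, thioredoxin reductase (71.8 against 8.16 FPKM). On the other side stood SOD2, the mitochondrial superoxide dismutase (56.4 FPKM against 0), and GSS, of glutathione synthesis (80.5 FPKM against 0), brain-labelled first. This list of 36 was near even, with 5 genes (13.9%) against 4 (11.1%). Of 32 genes for glycosylation and glycosyl-phosphatidylinositol anchors, 5 (15.6%) were higher under the heart label and 4 (12.5%) under the brain label, while the median difference was 0.34 and 20 of the 32 had the higher value under the brain label. The heart-labelled side held the anchor genes GPAA1 (129 against 23.2 FPKM), PIGT (55.0 against 12.6 FPKM) and PIGL (62.9 FPKM against 0), heart-labelled first, and the brain-labelled side TUSC3 and the sugar transferases B4GALT7 (75.6 against 11.5 FPKM) and B3GALNT2 (64.3 against 8.34 FPKM), brain-labelled first. Genes listed at 0 under the brain label with the largest heart-labelled values also included OVCA2 (145 FPKM), NMRK1, of NAD synthesis (144 FPKM), ISCA2, of iron-sulfur cluster assembly (119 FPKM), GNPDA1, of amino sugar breakdown (109.8 FPKM), and SCNM1, a splicing protein (109.6 FPKM).

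**Figure D3:**
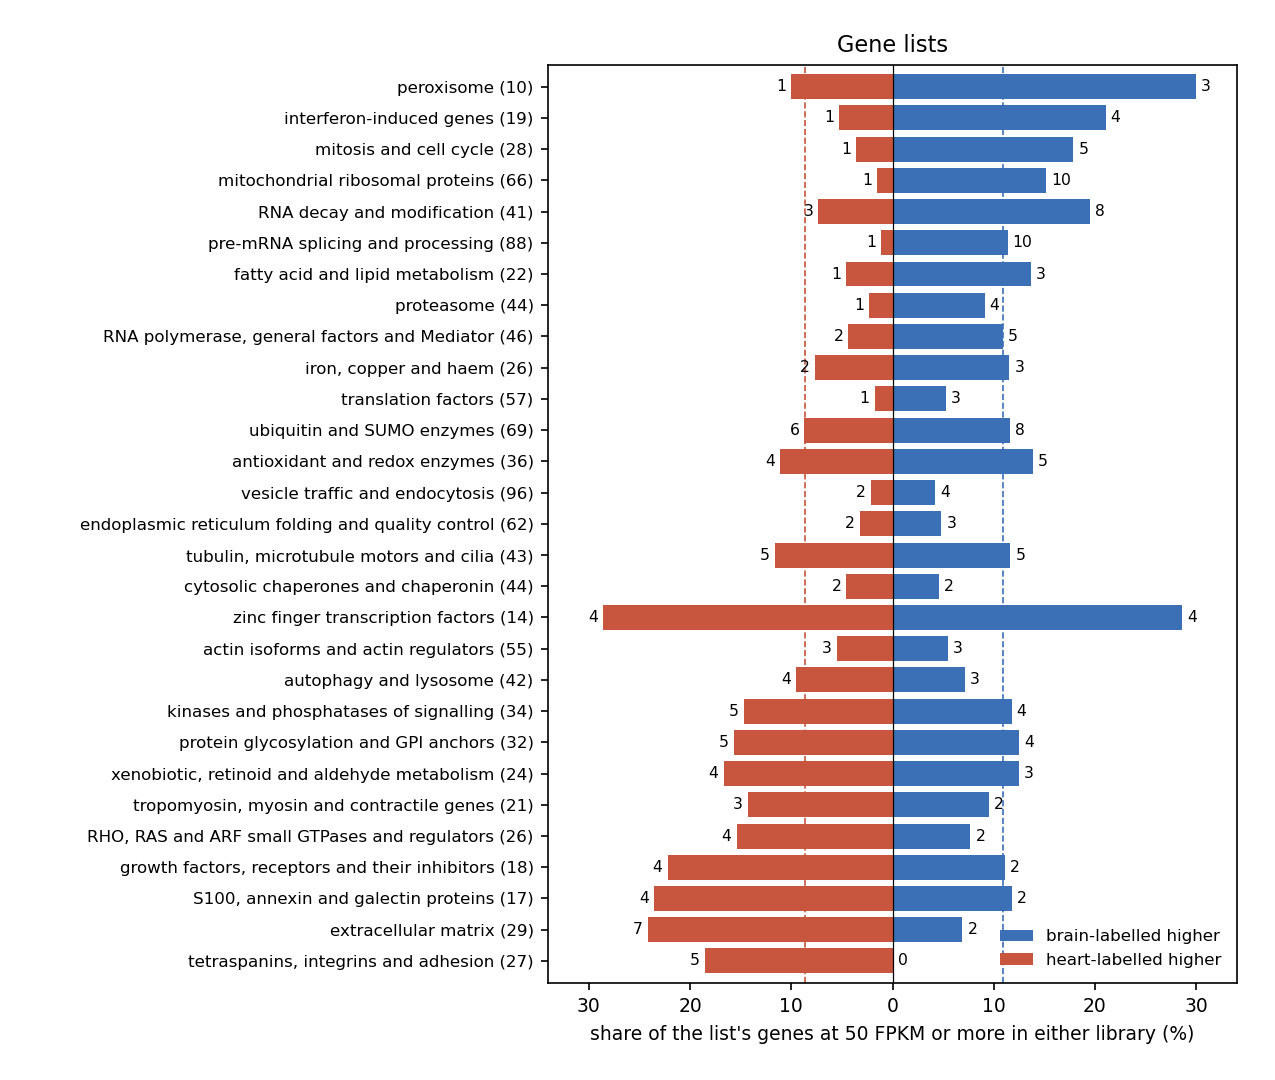
Bars give, for each gene list with at least 10 genes at 50 FPKM or more in either library and at least 4 differing genes, the share of its genes (%) higher under the brain label (blue, right) or the heart label (red, left). The number of genes in a list stands in brackets and the number of differing genes at each bar; the dashed lines mark the shares over all 2623 genes, 10.9% and 8.65%. The matrix and adhesion lists lie at the bottom with 7 and 5 heart-labelled genes, and the interferon and mitochondrial ribosomal lists near the top with 4 and 10 brain-labelled genes.

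Of the 46 lists with 10 or more genes at the minimum, 32 had a median difference above 0 and 14 below 0, and for 4 of them, all near 0, the sign changed when the heart-labelled library was rescaled. These 4 were antioxidant and redox enzymes, endoplasmic reticulum folding, iron, copper and haem, and the list of metalloproteinases, inhibitors and serpins. At a ratio of 8 the lead of 9 mitochondrial ribosomal genes on the brain-labelled side became 2, that of 5 genes of RNA decay, modification and ribosome assembly 2, and that of 3 proteasome genes 0, while the lead of 5 matrix genes on the heart-labelled side became 2. The 513 genes included 249 that belonged to at least 1 list, 194 named genes outside every list and 70 without a name. Larger lists at the background or below it included vesicle traffic, with 4 of 96 genes higher under the brain label and 2 under the heart label. Endoplasmic reticulum folding gave 3 and 2 of 62, actin and its regulators 3 and 3 of 55, and translation factors 3 and 1 of 57.

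Small noncoding RNAs and unnamed genes made up a further group. Of 21 small RNA entries at the minimum, 10 (47.6%) were higher under the brain label and 4 (19.0%) under the heart label, and all 14 were at 0 in the other 4 libraries. The largest were bta-mir-3533 at 1057 FPKM, and bta-mir-1248-1 and bta-mir-1248-2 at 364 FPKM each, all under the brain label. The latter pair had identical values, so 1 signal may be counted at both copies. Under the heart label a U6 entry was at 296 FPKM, SNORA2C at 114 FPKM and a SNORA73 entry at 112 FPKM, while another SNORA73 entry was at 89.3 FPKM under the brain label alone. FPKM of such short transcripts rest on few fragments. Among the 35 unnamed genes in each direction, ENSBTAG00000043565 was at 3269.5 FPKM under the brain label, 0 under the heart label and 5158, 11765 and 11394 FPKM under the skin, lung and limb labels. ENSBTAG00000054774 was at 1479 FPKM in the heart-labelled and 26.9 in the brain-labelled library, with 60.0, 1894 and 1227 FPKM in the other 3.

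Values under the skin, lung and limb labels, which the rule did not use, were set beside each difference. For the 286 genes higher under the brain label, the median level was 84.8 FPKM in that library and 5.23 FPKM under the heart label, and it was 17.7, 35.8 and 25.2 FPKM under the skin, lung and limb labels. The lung-labelled value was nearer to the brain-labelled one in 153 of the 286 genes (53.5%), the limb-labelled value in 131 (45.8%) and the skin-labelled value in 126 (44.1%). In 60 genes (21.0%) all 3 of these libraries were at least 4-fold below the brain-labelled value, so that the gene was high there alone. They included ISG15, CYP3A4, DNAJB11, RNF4, ALDOC (a glycolytic aldolase known from brain, 86.3 FPKM against 0 in the other 4) and DHX15. In 42 genes (14.7%) all 3 were at least 4-fold above the heart-labelled value after adding 1, so that this value was the lowest of the 5. MDK, PSMB9, FUNDC1, MRPS33, MYL12B, SOD2, EED and EFEMP1 were of this kind. Where the heart-labelled value was 0, a few FPKM sufficed, and some of the 42 were low elsewhere too. FUNDC1 was at 41.1 FPKM and RFC3 at 4.36 FPKM under the limb label, against 285 and 60.5 FPKM under the brain label. The remaining 184 genes were mixed.

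For the 227 genes higher under the heart label, the median was 84.2 FPKM in that library and 2.35 FPKM under the brain label, with 5.10, 16.3 and 24.6 FPKM under the skin, lung and limb labels. The limb-labelled value was nearer to the heart-labelled one in 106 genes (46.7%), the lung-labelled value in 99 (43.6%) and the skin-labelled value in 89 (39.2%). In 55 genes (24.2%) all 3 were at least 4-fold below the heart-labelled value, among them TGFBI, PLAUR, GRP, TMEM40, ACTG2, S100B, COL5A1, NID2, FGFR1, SPRY2 and HEY1. In 26 genes (11.5%) all 3 were at least 4-fold above the brain-labelled value, among them PRRX1, ID3, CD59, PERP, PPP1R14A, LOX and MGST1. For PRRX1, CD59 and PPP1R14A, 2 of the 3 were also at least 4-fold below the heart-labelled value. The remaining 146 genes were mixed. The interferon gene ISG15 was thus high under the brain label alone and PSMB9 low under the heart label alone, while the matrix genes TGFBI and LOX divided in the same way between high under the heart label and low under the brain label. The part of sequencing depth in these counts was not tested.

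**Figure D4:**
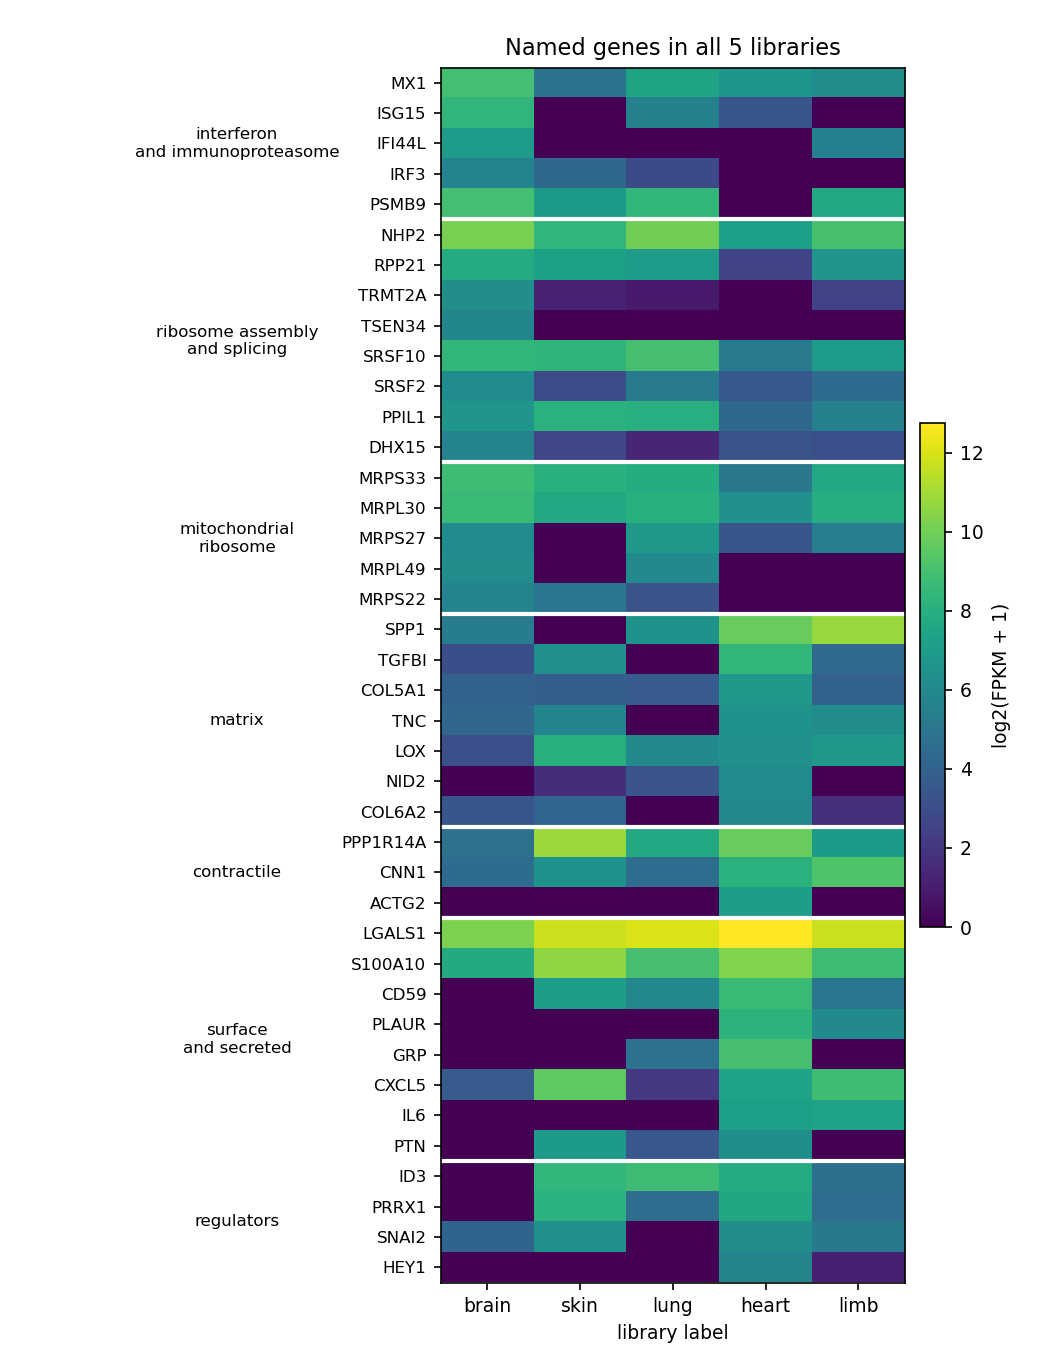
Each row is 1 gene of a group named in the text and each column 1 library by its label, coloured by log2(FPKM + 1) from 0 (dark) upward (yellow). The antiviral genes MX1 and ISG15 are brightest in the brain column, and TGFBI, ACTG2 and GRP in the heart column, while PSMB9 is at 0 in the heart column alone and PRRX1 and ID3 in the brain column alone.

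**Figure D5:**
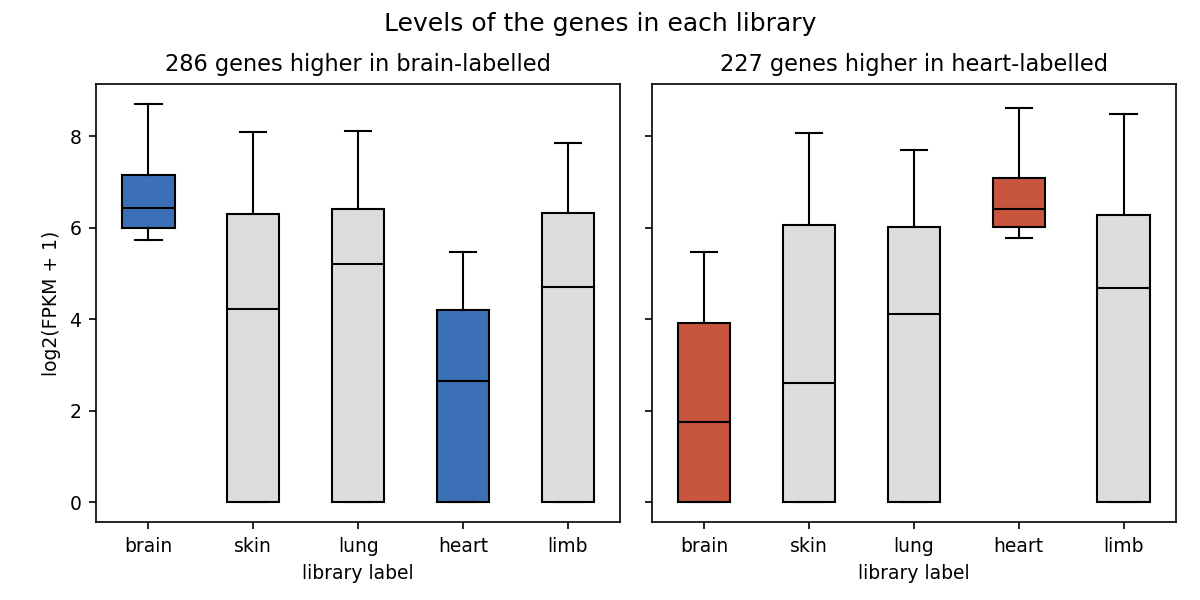
Boxes give the quartiles and median of log2(FPKM + 1) in each library, with whiskers from the 5th to the 95th percentile, for the 286 genes higher under the brain label (left) and the 227 higher under the heart label (right). Coloured boxes are the libraries the rule used and grey boxes those it did not; the grey medians lie between the coloured ones in both panels.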

How the data were processed

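The authors deposited 1 table of 27607 genes (19856 named) by 5 libraries, 1 per tissue label. Per the submitters' processing notes, bcl2fastq, STAR and RSEM were used with the ARS-UCD1.2 build; no source used here gives their versions. The deposited values were taken as FPKM by elimination, since no source names the unit: 98.7% or more of the values above 0 were not whole, and no library summed to a fixed total. With no counts and 1 library per label, no test was run. Read totals are not given. For the compared pair, 276 of 3557 genes at 2 to 200 FPKM had values in ratios of whole numbers up to 4, within 0.3%, at the best offset (a heart-labelled depth of 81.0% of the brain-labelled one), against a median of 63 at other offsets. At 1.5 times that offset 246 did and at 2 times 259 did, so the relative depth is uncertain by a factor of 2. Which of the libraries was the deeper one is therefore not settled. The worth of a read may be overstated, since equal counts were taken as 1 against 1.

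The genes compared, the gene lists and the rule were chosen with earlier results of these data known. Lists were built from gene names, 55 for processes and 13 for cell type markers. After their matches were seen, 3 name patterns were dropped and 35 genes matched by name only were taken out. A gene can be in several lists. The text names, in each direction, the 20 named genes with the highest value, the 15 with the largest ratio, the 10 with the highest lower value, up to 4 per list by ratio, 3 small RNAs, and 2 genes on each side of each threshold. Any other gene was named after its values were seen. Alternatives were other minimums, ratios and pseudocounts, rescaled libraries and subsets of genes. The code of the rule was checked on simulated data with planted changes. That simulation held no missed transcripts and no read-count noise, so it says nothing on how reliable the differing genes are. Python 3.11.15, pandas 2.3.3, numpy 2.4.6 and matplotlib 3.10.9 were used.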

Additional observations from a re-analysis of the deposited data

How the results depend on the processing

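Each count of differing genes was recomputed under 14 alternatives, and 8 of them kept it within 1.5 times the reported 286 (brain-labelled higher) and 227 (heart-labelled higher). A minimum of 20, 100 or 200 FPKM gave 728, 111 and 49 genes in the first direction and 617, 89 and 31 in the second. A ratio of 2 or 8 gave 680 and 169, and 452 and 147. Genes above 0 in both libraries numbered 173 and 119. The largest change by scaling came from a trimmed mean of log ratios, a shift of 0.13 on the log2 scale, which gave 263 and 266, so the brain-labelled share of the differing genes went from 55.8% to 49.7%; the median ratio gave 268 and 256. The lead of brain-labelled over heart-labelled genes therefore rests on the scaling. In the mitosis and cell cycle list the difference in counts turned to -1 at minimums of 100 and 200 FPKM, and in the RNA polymerase and Mediator list to -1 under both rescalings; the cause was not tested. With 1 library per label, few reads behind low values and no counts, genes near 50 FPKM are the least certain.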
